A study of Tigriopus californicus with 4 samples.

Results

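Ion channels and neurotransmitter receptors of the tidepool copepod *Tigriopus californicus* were followed through heat stress in pools from San Diego (SD) and Santa Cruz (SC). The members were the contigs, assembled stretches of messenger RNA, whose product name held "potassium channel", "sodium channel", "calcium channel", "chloride channel", "acetylcholine receptor", "glutamate receptor", "gaba receptor", "gamma-aminobutyric", "serotonin receptor", "dopamine receptor", "octopamine" or "transient receptor potential". Names holding a square bracket were dropped, which removed 1 contig. This left 131 of 20278 SD contigs and 117 of 20931 SC contigs, or 248 of 41209 in all. A name is that of the closest BLAST hit, often from an insect or a vertebrate, so it states likeness and not a tested function. No contig was named as a serotonin receptor in either population.

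The groups, with 1 library each, were SD heat stress, SD control, SC heat stress and SC control. Heat stressed pools spent 1 h at 35 °C and then 1 h at 20 °C, while control pools stayed at 20 °C. Every library came from a large pool of whole animals of all developmental stages, so nervous system and muscle RNA is mixed with that of all other tissues, and fewer cells of a type cannot be told apart from less RNA per cell. The study asked how a southern population (SD) and a northern one (SC) differ in their response to acute heat.

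As background, voltage-gated sodium channels carry the action potential, potassium channels end it and hold the resting potential, and calcium channels turn it into transmitter release or muscle contraction. Ligand-gated channels answer a transmitter directly: nicotinic acetylcholine receptors and ionotropic glutamate receptors excite the cell, while channels gated by GABA and, in invertebrates, by glutamate or histamine let chloride in and quiet it. Metabotropic receptors for glutamate, acetylcholine, dopamine and octopamine act through G proteins, and octopamine fills in arthropods much of the role that noradrenaline has in vertebrates. Several transient receptor potential (TRP) channels are heat sensors in *Drosophila*.

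Values are RPKM, reads per kilobase of contig and per 1e6 mapped reads, and can be compared between contigs of different length. Whole reads could be worked back from them, with library totals of 5583127 and 1947202 mapped reads for SD heat stress and SD control and of 4948622 and 3256758 for SC heat stress and SC control. The recovered reads are the smallest numbers that give the deposited values, and 95% counting intervals of a ratio (exact, Clopper-Pearson) come from them and cover counting error only. True reads may be a multiple of them: 7 SD and 9 SC members had under 10 recovered reads in both libraries (5.76% and 5.26% of all contigs). With 1 library per condition no value has a replicate, the tests compare libraries and not conditions, and treatment cannot be told apart from the sequencing lane, which differed between heat stress and control. The median contig had a heat stress over control ratio of 0.977 in SD and 1.32 in SC, a log2 ratio of -0.03 and 0.40, and some SC values are therefore also given relative to the median contig. The deposited contigs begin at about 10 reads in at least 1 library: 128 SD contigs had 9 reads in their deeper library and 598 had 10, and the SC numbers were 120 and 651. Since the heat stress libraries were the deeper ones, a member with under 10 control reads was listed only if its heat stress reads were high enough. By the recovered reads, this held for 48 SD members (36.6%, against 29.1% of all SD contigs) and 44 SC members (37.6%, against 23.9% of all SC contigs). How this lower limit arose is not given in the sources used here, and its part in their ratios was not tested.

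Most members were scarce. Their median level was 6.66 RPKM after heat stress and 6.99 RPKM in the control in SD, where the median contig had 13.8 and 13.9 RPKM. In SC the members' median was 5.25 RPKM after heat stress and 3.98 RPKM in the control, against 14.3 and 10.9 RPKM for the median contig. A few abundant contigs carried most of the signal: 7 SD members averaged at least 100 RPKM and held 66.8% of the members' summed RPKM after heat stress and 66.7% in the control. The 6 SC members at that level held 69.2% after heat stress and 71.2% in the control. All were ligand-gated receptors or acetylcholine receptor-like names, apart from 1 SC contig named as a GABA receptor-associated protein. Over all members the summed RPKM came to 0.430% and 0.440% of the library in SD heat stress and control, and to 0.342% and 0.286% in SC heat stress and control.

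**Figure D1:**
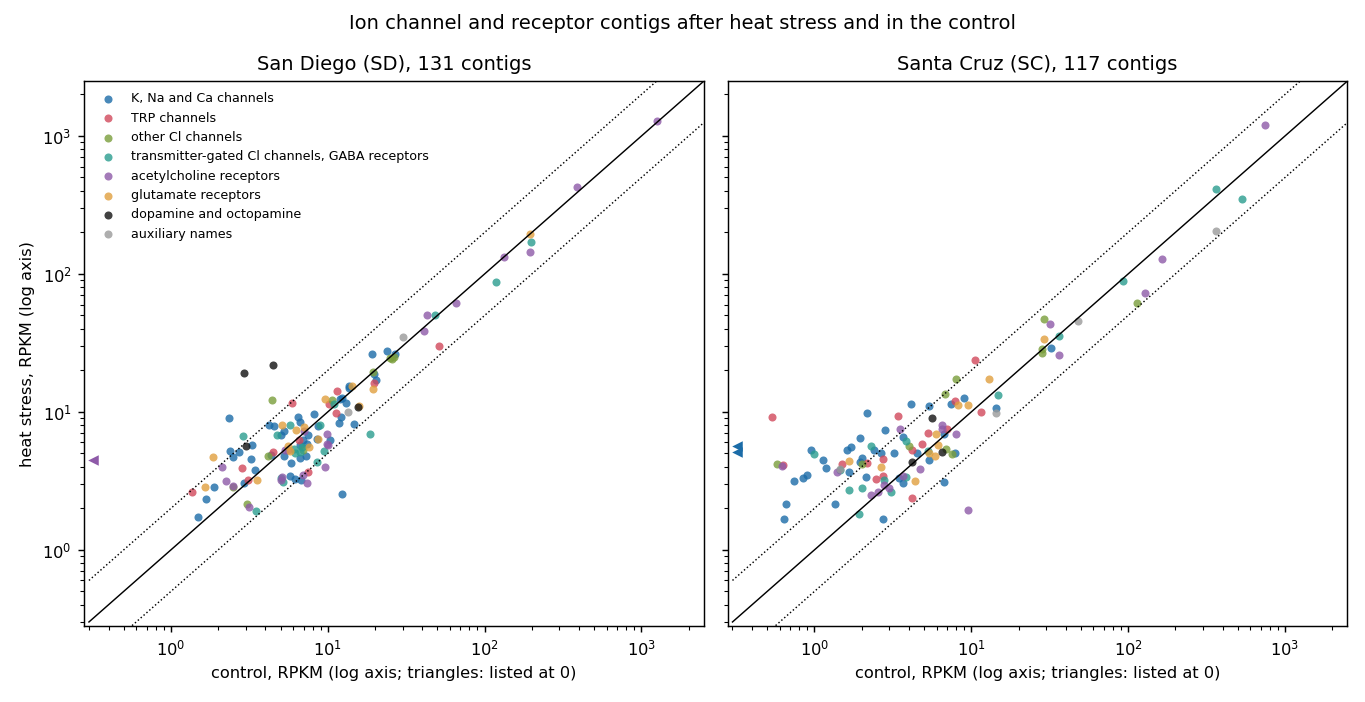
RPKM of each of the 131 SD members and 117 SC members after heat stress (vertical, log axis) against the control (horizontal, log axis), coloured by kind of channel or receptor. The solid line marks equal values and the dotted lines a 2-fold difference, and triangles at the left edge are the 3 members listed at 0 in the control. Abundant members lie near the line of equal values, and most points beyond the dotted lines are below 10 RPKM.

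No SD member and 2 SC members were called between heat stress and control. The call was a Bonferroni adjusted p of at most 0.10 by Kal's Z-test on RPKM shares, over all contigs of the population. It was passed by 2.59% of all SD contigs and 5.54% of all SC contigs. Kal's test compares proportions of reads, and RPKM are divided by contig length, so its p on RPKM shares does not measure counting error. Of other SD contigs, it called 0 of 3103 with a mean below 5 RPKM and 0 of 4629 from 5 to 10 RPKM. In SC it called 0 of 3620 and 2 of 4861. Those 2 ranges held 36 and 50 of the SD members and 61 and 29 of the SC members, which this test could hardly call. In SD, 0 of 131 members passed (1.35% of all SD contigs were called higher and 1.24% lower), while 9 had an unadjusted p of at most 0.05 by the same test (12.9% of all SD contigs did). Fisher's exact test on the recovered reads with a Benjamini-Hochberg adjusted p of at most 0.05, called the read test from here on, passed 6 SD members (8.02% of all SD contigs), 3 higher and 3 lower after heat stress (3.49% and 4.54%). The same test passed 25 SC members (44.5% of all SC contigs), 18 higher and 7 lower (28.9% and 15.7%). With the Bonferroni limit on reads, Kal's test passed 2 SD and 9 SC members (3.16% and 17.9% of all contigs) and Fisher's test 2 SD and 11 SC members (3.14% and 18.3%). Kal's test on RPKM with the Benjamini-Hochberg limit passed 2 SD and 8 SC members (6.25% and 20.6%). The share of members that passed was thus below the share of all contigs by each of these tests, and the members also had fewer reads than the median contig (29 against 51 after heat stress and 11 against 19 in the control in SD, and 20 against 45 and 10 against 23 in SC). The median interval of a member spanned a factor of 4.73 in SD and 5.34 in SC, against 3.07 and 2.98 for all contigs, so that changes under 2-fold were detectable only in the more abundant members. For 33 SD members and 25 SC members the whole interval lay between 0.5 and 2.

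The 2 SC contigs that were called are unlike in role. The contig named as a precursor of the neuronal acetylcholine receptor subunit alpha-3 (SCN_Contig55728), a nicotinic subunit name, had 1205 RPKM after heat stress, against 747 RPKM in the control (ratio 1.61, interval 1.54 to 1.69, adjusted p = 1.03e-87 by Fisher's exact test on reads). It was up-regulated by both tests, but relative to the median contig its ratio was 1.23 (1.17 to 1.29) and Kal's test scaled to the median contig did not call it. That scaling called 4 SC members (7.98% of all SC contigs), all lower. The gaba receptor-associated protein contig (SCN_Contig55769) had 204 RPKM after heat stress, against 361 RPKM in the control (ratio 0.565, interval 0.512 to 0.623, adjusted p = 1.8e-29 by Fisher's exact test on reads), and relative to the median contig its ratio was 0.429. Despite the name, proteins of this family are ubiquitin-like and work in autophagy. It was the only member called lower, where 2.49% of all SC contigs were called lower and 3.05% higher.

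By a 2-fold rule, 14 SD members (14.9% of all SD contigs) and 37 SC members (36.7% of all SC contigs) differed between heat stress and control. In SD, 7 of 130 members with a ratio were at least 2-fold higher after heat stress (9.3% of all SD contigs) and 7 were at least 2-fold lower (5.56%). In SC, 35 of 115 were at least 2-fold higher (28.4%) and 2 were at least 2-fold lower (8.31%). The rule left out 1 SD and 2 SC members that were listed at 0 in the control (2.85% and 1.21% of all contigs were). Of the higher members, 6 of the 7 in SD and 29 of the 35 in SC had under 10 control reads. Among members with at least 10 reads in both libraries, 1 was 2-fold higher and 5 were 2-fold lower of 76 in SD, and 6 were 2-fold higher and 0 lower of 62 in SC. Among all contigs with that depth, 211 were 2-fold higher and 693 lower of 13044 in SD, and 2447 were higher and 1093 lower of 14246 in SC, and the difference of the members from them was not tested. That subset is itself selected, since it drops members whose control reads fell short, and the part of this in its ratios was not tested. The median log2 ratio was -0.02 in SD and 0.40 in SC, against -0.03 and 0.40 for all contigs.

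**Figure D2:**
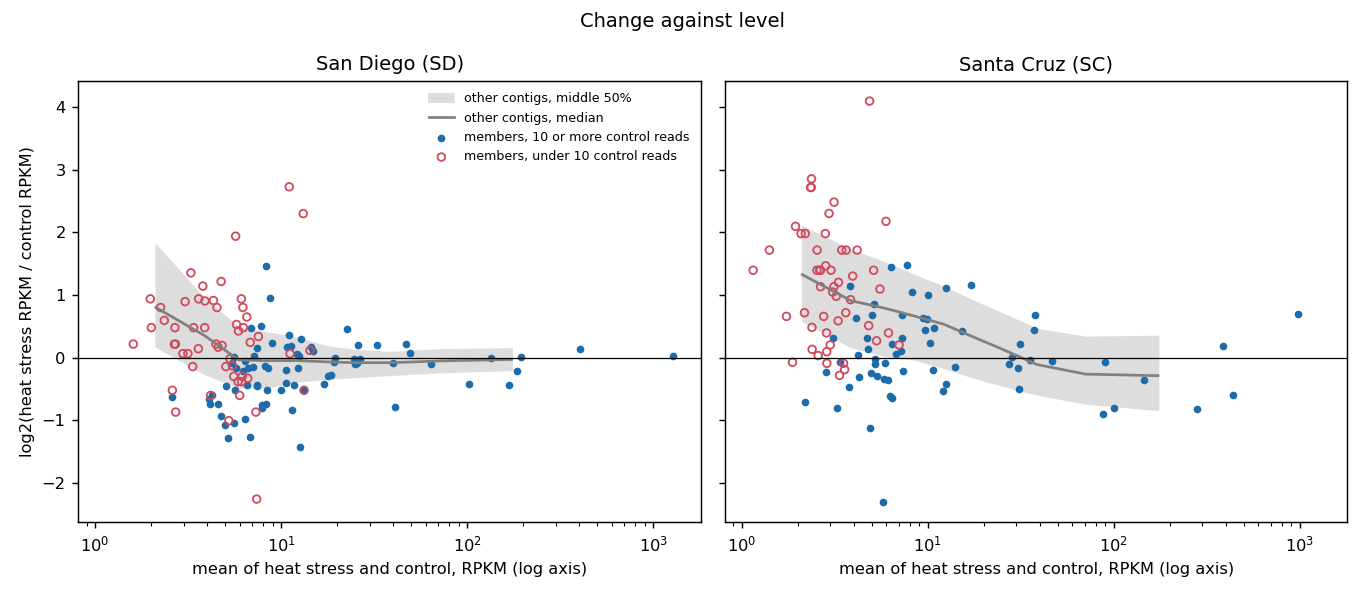
Log2 ratio of heat stress to control RPKM (vertical) against the mean RPKM of the pair of libraries (horizontal, log axis) for SD and SC members, with the median and the middle 50% of all other contigs in grey. Open circles are members with under 10 control reads, and the grey median itself is above 0 at the lowest levels in both populations and falls with level in SC.

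In SC the median ratio fell with level, in members and in other contigs, while in SD it was above 1 only in contigs below 5 RPKM. Below a mean of 5 RPKM the median log2 ratio was 0.22 in SD members and 0.42 in other SD contigs, and 0.72 in SC members and 1.06 in other SC contigs. From 5 to 10 RPKM it was -0.16 in SD members, against -0.04 in other SD contigs, and 0.27 in SC members, against 0.72 in other SC contigs. From 10 to 30 RPKM it was -0.02 in SD members, against -0.07 in other SD contigs, and 0.13 in SC members, against 0.34 in other SC contigs. At 30 RPKM or more it was 0.00 in SD members, against -0.06 in other SD contigs, and -0.06 in SC members, against -0.21 in other SC contigs. A class of members that is scarce is therefore to be read against contigs of its own level.

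**Figure D3:**
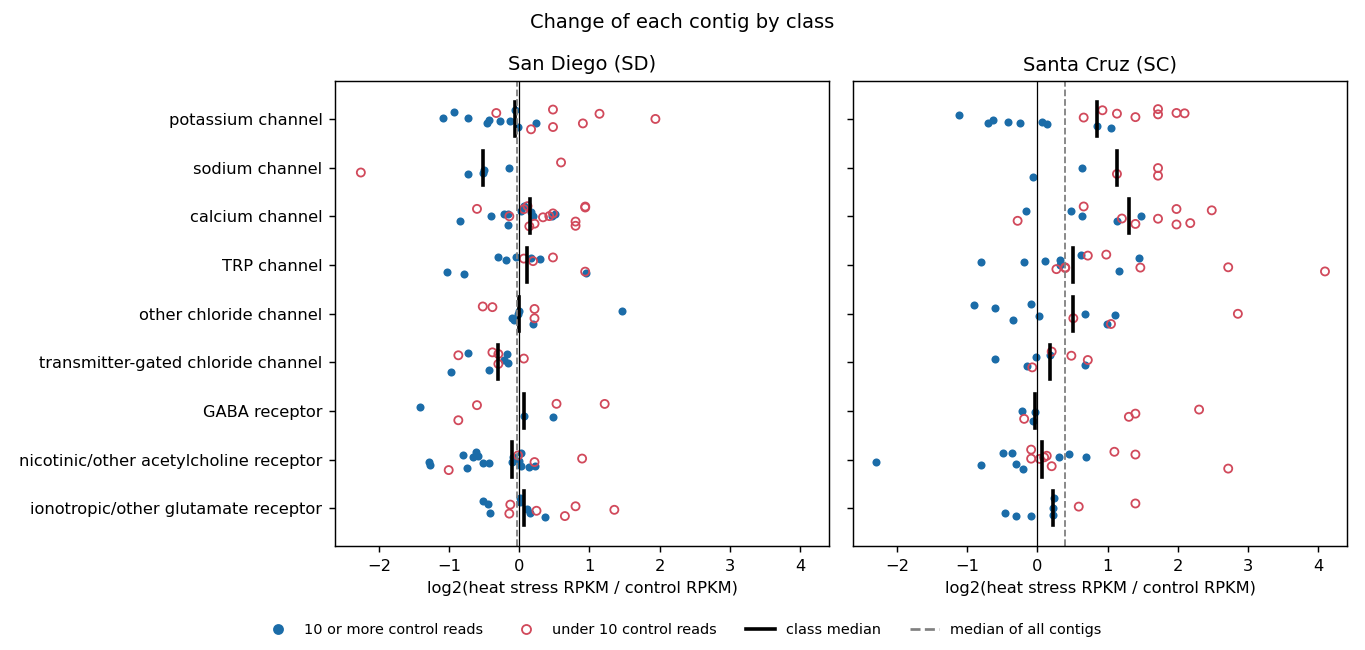
Log2 ratio of heat stress to control RPKM for each member of the larger classes in SD (left) and SC (right). Filled points have at least 10 control reads, open points fewer, black bars are class medians and the dashed line is the median of all contigs (-0.03 in SD and 0.40 in SC). In SC the potassium, sodium and calcium channels lie furthest right, mainly through open points.

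Potassium channels numbered 17 in each population, and none was called. Their median log2 ratio was -0.06 in SD and 0.86 in SC. The most abundant SD potassium channel, an inwardly rectifying channel 2 contig of the kind that holds the resting potential, had 26.3 RPKM after heat stress, against 26.6 RPKM in the control (ratio 0.988, interval 0.780 to 1.26). In SC the 2 contigs with that name differed in direction. One had 11.1 RPKM after heat stress, against 5.37 RPKM in the control (97 and 31 reads, ratio 2.06, interval 1.36 to 3.19), and passed the read test. The other had 5.06 RPKM after heat stress, against 7.88 RPKM in the control (ratio 0.642, interval 0.407 to 1.01). Relative to the median contig their ratios were 1.56 (interval 1.03 to 2.43) and 0.488 (interval 0.310 to 0.769). Whether these are separate genes or copies of one that share reads cannot be told from the names.

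Calcium-activated potassium channels, which open on calcium and voltage together, had their clearest pair of values in the contig named calcium-activated potassium channel alpha chain. It had 16.9 RPKM after heat stress, against 20.4 RPKM in the SD control, while in SC it had 10.7 RPKM after heat stress, against 14.4 RPKM in the control. Both intervals included 1 (0.602 to 1.15 in SD and 0.530 to 1.06 in SC). The slowpoke contig slo-1, the large-conductance channel of this kind, had 7.87 RPKM after heat stress, against 8.61 RPKM in the SD control, while in SC it had 1.68 RPKM after heat stress, against 2.73 RPKM in the control. The leak channel name potassium channel subfamily k member 9 gave 6.35 and 8.55 RPKM for SD heat stress and control, and 6.93 and 6.65 RPKM for SC heat stress and control. None of these 3 names passed the read test in either population. In SC, 3 further contigs named calcium-activated potassium channel alpha summed to 18.4 RPKM after heat stress, against 5.92 RPKM in the control. Each rested on 3 control reads or fewer, and the one with the largest ratio (4.502 RPKM after heat stress, against 1.14 RPKM in the control) had an interval of 1.15 to 20.9.

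Sodium channels numbered 6 in each population and none was called. The contig named sodium channel protein para, after the *Drosophila* gene for the channel of the action potential, had 8.29 RPKM after heat stress, against 11.8 RPKM in the SD control (121 and 60 reads, ratio 0.703, interval 0.512 to 0.975). In SC it had 5.00 RPKM after heat stress, against 3.21 RPKM in the control (45 and 19 reads, ratio 1.56, interval 0.893 to 2.82). It did not pass the read test in either population. Of the SD sodium channels 5 of 6 had a ratio below 1, where 46.7% of all SD contigs were above 1, and the median log2 ratio was -0.51. A second SC contig, named as a para-like channel, had 5.10 RPKM after heat stress and was listed at 0 in the control. Against a set floor of 3 control reads it was 2.41-fold higher, with a lower end of the exact interval of 1.65. With 11 heat stress reads, that contig was itself near the listing limit.

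Calcium channels were the most numerous class in SD, with 24 contigs against 15 in SC. In SD 17 of 24 had a ratio above 1 and none reached 2-fold in either direction, with a median log2 ratio of 0.15. In SC 12 of 14 with a ratio were above 1 and 9 were at least 2-fold higher (63.9% and 28.4% of all SC contigs). The median log2 ratio of these SC calcium channels was 1.30, or 0.90 relative to the median contig. Other SC contigs below 5 RPKM had a median log2 ratio of 1.06. Of those 9, 7 had under 10 control reads. The read test passed 5 SC calcium channels (44.5% of all SC contigs), all higher after heat stress (28.9%). At least 2 of these 5 had under 10 recovered control reads, and the part of the listing limit in their direction was not tested. It passed no SD calcium channel (8.02% of all SD contigs).

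L-type channels named as dihydropyridine-sensitive, the kind that couples excitation to contraction in muscle, had a median log2 ratio of 1.98 in SC. All 5 such SC contigs had a ratio above 1 and 4 were at least 2-fold higher (63.9% and 28.4% of all SC contigs). The leading one (SCN_Contig62236) had 9.79 RPKM after heat stress, against 2.16 RPKM in the control (55 and 8 reads, ratio 4.52, interval 2.14 to 11.0, 3.44 relative to the median contig). The other 4 had 12 to 17 heat stress reads and 2 to 5 control reads. All 5, the leading one included, had under 10 recovered control reads, so that by these smallest numbers their listing rested on heat stress. In SD 3 of the 4 contigs named as dihydropyridine-sensitive had a ratio below 1, where 46.7% of all SD contigs were above 1. All 4 together summed to 23.5 RPKM after heat stress, against 29.1 RPKM in the control. A further 2 SD contigs with L-type in their name, given after their values were seen, had ratios of 1.92 (11 and 2 reads, interval 0.419 to 17.8) and 1.10 (19 and 6 reads, interval 0.424 to 3.38). The difference between the populations could be tested for 1 of these names only (dihydropyridine-sensitive l- skeletal muscle calcium channel alpha-1). Its log2 change was 1.94 lower in SD than in SC, with an interval of -4.37 to 0.48, and it did not pass an adjusted p of 0.05.

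Type D alpha-1 subunits, named after an L-type channel of *Drosophila*, had 4 of their 5 contigs with a ratio above 1 in both populations together, and the remaining contig was listed at 0 in the SC control. In SD they had 27.6 and 26.2 RPKM after heat stress, against 24.0 and 19.1 RPKM in the control, and both intervals included 1. In SC the contig with the largest ratio (SCN_Contig33181) had 11.4 RPKM after heat stress, against 4.11 RPKM in the control (55 and 13 reads, ratio 2.78, interval 1.502 to 5.56). The one at 0 (SCN_Contig35740) had 5.69 RPKM from 25 reads after heat stress, 5.48-fold higher than a set floor of 3 control reads. The lower end of its exact interval was 4.14. Being at 0 in the control, this contig was listed through its heat stress reads only, and the part of that limit in its value was not tested. Of the muscle markers, 64 of 74 with a ratio were above 1 in SC, against 63.9% of all SC contigs. The summed level of that list of 76 names was 12297 RPKM after heat stress, against 7219 RPKM in the SC control, its median log2 ratio was 1.05, and 2 of its names were at 0 in the control. In SD the 64 muscle markers summed to 7451 RPKM after heat stress, against 6065 RPKM in the control, with a median of 0.28 and none at 0. Of these 64, 54 had a ratio above 1, against 46.7% of all SD contigs. The part of muscle in the calcium channel values was not tested.

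TPC1, a calcium channel of endosomes and lysosomes and not of the cell surface, had an interval that included 1 in both populations. The SD contig whose name matches that in SC had 12.6 RPKM after heat stress, against 12.4 RPKM in the SD control (ratio 1.02, interval 0.545 to 2.03). In SC it was the most abundant calcium channel name, with 28.9 RPKM after heat stress, against 32.2 RPKM in the control (ratio 0.896, interval 0.773 to 1.04). Relative to the median SC contig that ratio was 0.681 (0.587 to 0.790).

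TRP channels numbered 12 in SD and 16 in SC, and none was called. Painless, which in *Drosophila* larvae is needed for the response to noxious heat, was named on 3 SD contigs and 7 SC contigs. The most abundant SC painless contig (SCN_Contig28640) had 23.6 RPKM after heat stress, against 10.6 RPKM in the control (400 and 118 reads, ratio 2.23, interval 1.81 to 2.76). It passed the read test and was still higher relative to the median contig (1.69, interval 1.38 to 2.10). The other 6 SC painless contigs had ratios of 0.877 to 1.97, and every one of their intervals included 1. In SD a contig chosen after its values were seen (SD_Contig39264) had 11.5 RPKM after heat stress, against 5.94 RPKM in the control (139 and 25 reads, ratio 1.94, interval 1.26 to 3.10), and passed the read test. A second SD painless contig (SD_Contig45955) had 3.66 RPKM after heat stress, against 7.497 RPKM in the control (14 and 10 reads), with an interval of 0.202 to 1.23. Summed over contigs, painless came to 25.1 RPKM after heat stress, against 24.7 RPKM in the SD control. In SC it came to 61.1 RPKM after heat stress, against 43.0 RPKM in the SC control. The SD sum was thus level while its contigs differed, and the names do not show which contigs are separate genes.

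Pyrexia, another heat-activated TRP channel of *Drosophila*, was the most abundant TRP contig of SD (SD_Contig47759). It had 30.0 RPKM after heat stress, against 51.5 RPKM in the control (342 and 205 reads, ratio 0.582, interval 0.488 to 0.695). This was the member with the smallest adjusted p among those lower in SD by the read test (1.6e-07), although Kal's test on RPKM did not call it. In SC the pyrexia contig with the most reads, named after its values were seen, had 12.04 RPKM after heat stress, against 7.82 RPKM in the control (117 and 50 reads, ratio 1.54, interval 1.10 to 2.19). Relative to the median contig that SC ratio was 1.17, with an interval of 0.833 to 1.66. Pyrexia stood on 2 SD and 3 SC contigs, so no single pair of contigs could be compared, and the difference between populations was not tested.

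A homolog of TRP subfamily A member 1, a channel opened by warmth and irritants, was named in SD only and, chosen after its values were seen, had 14.2 RPKM after heat stress, against 11.5 RPKM in the control (ratio 1.23, interval 0.929 to 1.65). The largest ratio of any member in either population was that of an SC contig named only as a TRP channel (SCN_Contig42319). It had 9.22 RPKM from 26 reads after heat stress, against 0.539 RPKM from 1 read in the control (ratio 17.1, interval 2.81 to 702). The short TRP channel 6 name, a TRPC channel, had 2.37 RPKM after heat stress, against 4.16 RPKM in the SC control (interval 0.2498 to 1.28).

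**Figure D4:**
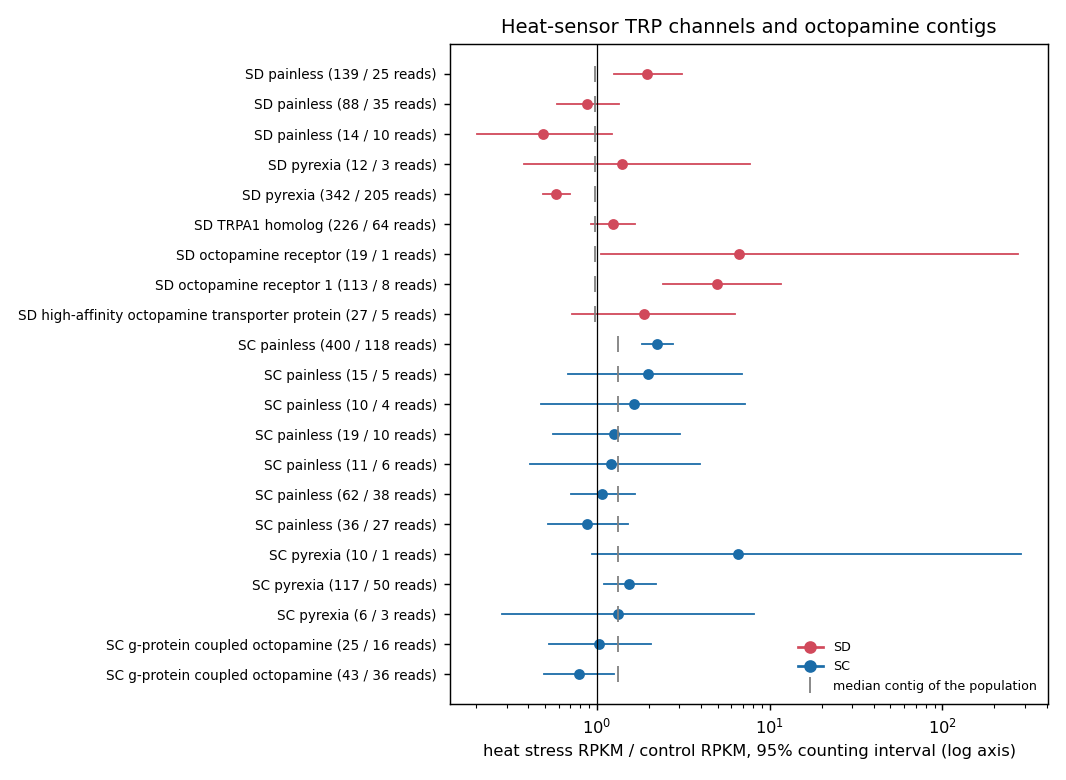
Ratio of heat stress to control RPKM (log axis) with its 95% counting interval for the contigs named painless, pyrexia, TRP subfamily A member 1 or octopamine, SD above SC, with the heat stress and control reads in brackets and a grey tick at the population's median contig. Painless contigs with the most reads lie right of 1, the deepest SD pyrexia contig lies at 0.582, and both SD octopamine receptor contigs lie above 4.

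Octopamine receptors gave the largest ratios in SD. Octopamine receptor 1 (SD_Contig38534) had 21.9 RPKM after heat stress, against 4.44 RPKM in the control (113 and 8 reads, ratio 4.93, interval 2.42 to 11.7). A second contig, named octopamine receptor (SD_Contig39589), had 19.2 RPKM after heat stress, against 2.90 RPKM in the control (19 reads and 1 read, ratio 6.63, interval 1.05 to 275). Kal's test on RPKM did not call either with the Bonferroni correction and called both with the Benjamini-Hochberg correction. The read test passed octopamine receptor 1 only (adjusted p = 4.5e-06 by Fisher's exact test). By the recovered reads, which are the smallest that fit, both contigs met the listing limit in the heat stress library only. The part of that limit in their ratios was not tested. The octopamine transporter name, of the protein that takes the transmitter back up, was picked after its values were seen and had 5.66 RPKM after heat stress, against 3.003 RPKM in the SD control (interval 0.715 to 6.26).

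In SC both octopamine contigs were named as G protein-coupled and neither passed the read test. They had 5.12 and 4.31 RPKM after heat stress, against 6.52 and 4.19 RPKM in the control, with ratios of 0.786 (0.493 to 1.26) and 1.03 (0.528 to 2.06). The names differ from those in SD, so the populations could not be paired on them and the difference was not tested.

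Dopamine receptor d3 isoform 2 was the only dopamine receptor name in either population. It had 10.9 RPKM after heat stress, against 15.7 RPKM in the SD control (10 and 5 reads, interval 0.217 to 2.60). In SC it had 8.99 RPKM after heat stress, against 5.61 RPKM in the control (95 and 39 reads, ratio 1.60, interval 1.09 to 2.39). The SC contig passed the read test, and relative to the median contig its interval was 0.831 to 1.82. Muscarinic receptors, the G protein-coupled receptors for acetylcholine, were named in SD only. One had 3.13 RPKM after heat stress, against 2.25 RPKM in the control, and the other had 4.44 RPKM from 10 reads and was listed at 0 in the control, a difference that counting alone allows (lower end of the exact interval 0.782). Metabotropic glutamate receptors had 1 contig in SD, at 5.58 RPKM after heat stress, against 7.56 RPKM in the control. The 3 SC contigs of that kind had ratios of 0.940 to 1.355, and none passed the read test.

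Nicotinic and other acetylcholine receptors were the most abundant class, with a summed level of 2199 RPKM after heat stress, against 2218 RPKM in the SD control. In SC the sum was 1532 RPKM after heat stress, against 1160 RPKM in the SC control. In SD the leading contig, named neuronal nicotinic acetylcholine receptor alpha-2, had 1283 RPKM after heat stress, against 1264 RPKM in the control, and its interval of 0.933 to 1.10 left room for little change. In SC the leading contig was the alpha-3 precursor described above. A further SC contig of that name (SCN_Contig35102), named after its values were seen, had 128 RPKM after heat stress, against 163 RPKM in the control (ratio 0.782, interval 0.694 to 0.881). Both passed the read test, in opposite directions. The 3 contigs of the name summed to 1340 RPKM after heat stress, against 918 RPKM in the control.

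In SD 15 of 21 members of the class had a ratio below 1 and 28.6% had one above 1, against 46.7% of all SD contigs, a difference that was not tested. Of the 21, 3 were at least 2-fold lower (5.56% of all SD contigs) and none was 2-fold higher (9.3%). The alpha 4 invertebrate subunit had 3.999 RPKM after heat stress, against 9.61 RPKM in the SD control (37 and 31 reads, ratio 0.416, interval 0.251 to 0.694), and passed the read test (adjusted p = 0.0084 by Fisher's exact test). The alpha 2 subunit had 3.03 RPKM after heat stress, against 7.36 RPKM in the SD control, with an interval of 0.170 to 1.02. In SC 10 of 18 had a ratio above 1 (63.9% of all SC contigs) and 8 below. There the alpha10 subunit had 1.94 RPKM after heat stress, against 9.57 RPKM in the control (4 and 13 reads, ratio 0.202, interval 0.0481 to 0.655), and passed the read test. The name acetylcholine receptor protein 25-like stood on 4 SD contigs, which summed to 742 RPKM after heat stress, against 755 RPKM in the control. In SC its 2 contigs were both lower, and the larger (SCN_Contig35247) had 72.9 RPKM after heat stress, against 127 RPKM in the control (ratio 0.573, interval 0.491 to 0.668, 0.435 relative to the median contig).

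Ionotropic glutamate receptors, which excite the cell, had a most abundant contig close to the control in SD. The subunit ia contig had 196 RPKM after heat stress, against 195 RPKM in the control (1789 and 619 reads, ratio 1.01, interval 0.919 to 1.11), the narrowest interval of the 14 contigs. A less abundant SD contig (SD_Contig39661), named after its values were seen, had 14.6 RPKM after heat stress, against 19.5 RPKM in the control (178 and 83 reads, ratio 0.748, interval 0.573 to 0.983). The glutamate receptor 1 contig with the largest ratio had 4.71 RPKM after heat stress, against 1.84 RPKM in the SD control (22 and 3 reads, interval 0.768 to 13.3). In SC the most abundant of 8 contigs, named after glr-3 of *Caenorhabditis elegans*, had 33.9 RPKM after heat stress, against 29.1 RPKM in the control (ratio 1.17, interval 0.949 to 1.44). No contig of the class passed the read test in either population.

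Chloride channels gated by GABA, glutamate or histamine, which inhibit the cell, had 10 of 11 SD contigs with a ratio below 1. Their median log2 ratio in SD was -0.30, and 46.7% of all SD contigs had a ratio above 1. The GABA-gated channel (SD_Contig43634) had 171 RPKM after heat stress, against 198 RPKM in the control (886 and 359 reads, ratio 0.861, interval 0.761 to 0.976). The glutamate-gated channel (SD_Contig37374), named after its values were seen, had 87.6 RPKM after heat stress, against 118 RPKM in the control (463 and 217 reads, ratio 0.744, interval 0.632 to 0.878), and passed the read test. The other 9 had at most 11.4 RPKM in either library and did not pass the read test. In SC 4 of 9 had a ratio below 1, and the abundant GABA-gated pair moved in opposite directions. One (SCN_Contig55713) had 350 RPKM after heat stress, against 531 RPKM in the control (1733 and 1728 reads, ratio 0.660, interval 0.617 to 0.706). The other (SCN_Contig40382), named after its values were seen, had 414 RPKM after heat stress, against 364 RPKM in the control (ratio 1.14, interval 1.05 to 1.23). Both passed the read test, and relative to the median contig both were lower (0.501 and 0.864). With a further, scarce contig the name summed to 770 RPKM after heat stress, against 900.0 RPKM in the SC control, and copies that share reads could divide such a pair.

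GABA receptors under other names numbered 7 in each population. The isoform 3b contig, the most abundant in SD, had 50.7 RPKM after heat stress, against 48.3 RPKM in the control (ratio 1.05, interval 0.855 to 1.29). The SD beta subunit contig had 6.91 RPKM after heat stress, against 18.5 RPKM in the control (15 and 14 reads, ratio 0.374, interval 0.168 to 0.836), without passing the read test. In SC the gaba receptor contig had 88.5 RPKM after heat stress, against 92.4 RPKM in the control (ratio 0.957, interval 0.770 to 1.19). Relative to the median contig its ratio was 0.727 (interval 0.585 to 0.906). No contig in this class passed the read test.

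Chloride channels that are not opened by a transmitter held 4 of the 5 names whose change differed between the populations. The test of that difference passed 41.1% of all 4397 names on 1 contig in each population. Chloride channel proteins 2 and 7 no longer passed once each heat stress library was scaled to its median contig. This class takes in names of the CLC family, whose members 3 and 7 work in endosomes and lysosomes and whose member 2 works at the cell surface. It also takes in CLIC-like 1, a protein of the endoplasmic reticulum, and contigs named chloride channel accessory 2-like, an accessory name that was counted here with the channels. CLIC-like 1 had 24.6 RPKM after heat stress, against 24.9 RPKM in the SD control (ratio 0.989, interval 0.789 to 1.25). In SC it had 61.1 RPKM after heat stress, against 114 RPKM in the control (625 and 768 reads, ratio 0.536, interval 0.481 to 0.596), the smallest ratio among SC members of at least 30 RPKM, and 0.407 relative to the median contig (interval 0.366 to 0.453). Chloride channel protein 7 had 24.9 RPKM after heat stress, against 26.3 RPKM in the SD control. In SC it had 46.8 RPKM after heat stress, against 29.1 RPKM in the control (ratio 1.61, interval 1.39 to 1.86, and 1.22 relative to the median contig, interval 1.06 to 1.41). Chloride channel protein 2 had 12.1 RPKM after heat stress, against 10.6 RPKM in the SD control. In SC it had 17.2 RPKM after heat stress, against 7.95 RPKM in the control (ratio 2.16, interval 1.58 to 2.997, and 1.64 relative to the median contig, interval 1.20 to 2.28). The voltage gated chloride channel domain-containing protein went the other way, with 12.2 RPKM after heat stress, against 4.41 RPKM in the SD control (87 and 11 reads, ratio 2.76, interval 1.47 to 5.73). In SC it had 5.396 RPKM after heat stress, against 6.88 RPKM in the control (interval 0.451 to 1.38).

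The populations were compared through the 23 member names that stood on exactly 1 contig in each. Contigs were paired by name alone, from separate assemblies, so a pair may hold different genes. The gaba receptor name, for instance, had 2.86 RPKM in the SD control and 92.4 RPKM in the SC control. The difference of the log2 changes, SD minus SC, was tested on recovered reads with 0.5 reads added, and p-values were adjusted (Benjamini-Hochberg) over all 4397 such names. It passed an adjusted p of 0.05 for 5 of 23 names, against 41.1% of all names. CLIC-like 1 differed by 0.88 (interval 0.52 to 1.24) and the voltage gated chloride channel domain-containing protein by 1.76 (0.60 to 2.92), both higher in SD. Chloride channel protein 2 differed by -0.92 (-1.51 to -0.33), chloride channel protein 7 by -0.76 (-1.10 to -0.43) and sodium channel protein para by -1.13 (-2.02 to -0.25), all lower in SD. Once each heat stress library was scaled to its median contig, the last 3 names no longer passed, CLIC-like 1 (1.31) and the voltage gated chloride channel domain-containing protein (2.19) still did, and potassium channel modulatory factor 1 (0.69) passed as well.

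The other 18 names did not pass, and most of their intervals were wide. Nicotinic subunit beta1 had 26 and 13 reads for SD heat stress and control and 10 reads and 1 read for SC heat stress and control. Its difference of -2.75 had an interval of -5.39 to -0.11 and did not pass after adjustment. The narrowest interval among them was that of potassium channel modulatory factor 1, an auxiliary name, at 0.26 (-0.12 to 0.64). Of the 23 names, 3 were higher after heat stress in both populations, 7 were lower in both and 13 went opposite ways. Of all 4397 names, 1035 were higher in both, 1174 were lower in both and 2172 went opposite ways. Levels of the same names had a Spearman rho between the populations of 0.68 after heat stress and 0.48 in the control, against 0.87 and 0.76 over all 4397 names. These values describe 23 names that share their libraries and carry no test.

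**Figure D5:**
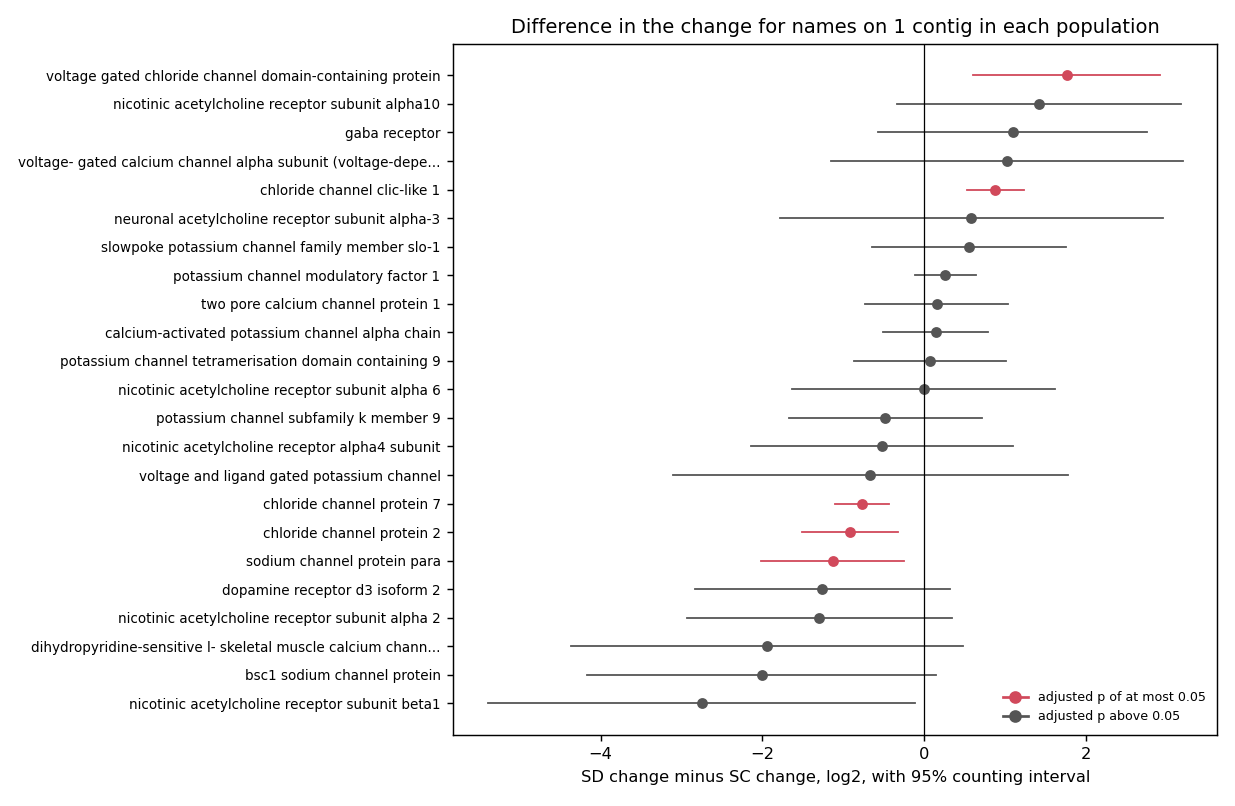
SD change minus SC change on the log2 scale, with 95% counting intervals, for the 23 member names on 1 contig in each population. Red names have an adjusted p of at most 0.05. The 4 chloride channel names and sodium channel protein para are red, and most other intervals are over 1 log2 unit wide and include 0.

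By Kal's test few other genes of the pathway were called, while the read test passed many of them in SC, where it passed 44.5% of all contigs. In a list of other channels, such as ryanodine receptors, innexins and bestrophins, 0 of 47 names were called in SD and 0 of 43 in SC, with median log2 ratios of -0.03 and 0.69, and the read test passed 1 in SD and 23 in SC (18 higher, 5 lower). Proteins of transmitter release, such as synaptotagmins and syntaxins, had 0 of 46 called in SD and 1 of 41, lower, in SC, with medians of -0.16 and 0.35, and the read test passed 3 in SD, all lower, and 21 in SC (10 higher, 11 lower). Enzymes and transporters that make, pack or clear transmitters had 1 of 20, lower, called in SD and 0 of 21 in SC, with medians of -0.10 and 0.17, and the read test passed 2 in SD, both lower, and 9 in SC (6 higher, 3 lower). Sodium and potassium pumps had 0 of 4 called in SD and 0 of 5 in SC, and 0 and 2 passed the read test. Neuron markers, 13 in SD and 12 in SC, had none called and none at 0, with medians of -0.20 and 0.35, and the read test passed 0 in SD and 7 in SC (4 higher, 3 lower). Their summed level was 248 RPKM after heat stress, against 273 RPKM in the SD control. In SC it was 310 RPKM after heat stress, against 352 RPKM in the control. Cuticle names had a median of 0.83 in SD and -1.25 in SC, with 22 of 74 and 11 of 62 called, and summed to 5673 RPKM after heat stress, against 3750.0 RPKM in the SD control. The SC sum was 2755 RPKM after heat stress, against 4921 RPKM in the control. Yolk names had a median of -0.10 in SD and 1.82 in SC, with 4 of 23 and 11 of 13 called. The part of a change in tissue make-up or stage in the members' values was not tested.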

How the data were processed

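The 4 libraries were analysed, 1 per population and condition, and grouped by their GEO labels. The deposited values are RPKM per contig, which the authors made with CLC Genomics Workbench by mapping 100 bp reads of each library to a de novo assembly of its own population and naming contigs by BLASTX. Contig sequences were not used here, so no sequence is shown.

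Heat stress was compared with control by Kal's Z-test, which took each RPKM as a share of its library's sum, with Bonferroni correction over all contigs of a population (adjusted p of at most 0.10), and by a 2-fold rule on the RPKM ratio with no value added. Whole reads were recovered by finding the total of each library and then, per contig, the shortest length (36 to 10000 bp) at which both values become whole numbers. The fit was unlikely by chance (p of at most 0.05) for 87.8% of SD and 99.8% of SC contigs. Recovery of reads, Kal's test and the counting intervals were run on simulated data, with the library totals given and at the recovered lengths. The search for the totals was not simulated. The difference between populations was a Wald test on log ratios of recovered reads.

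Alternatives were other corrections and thresholds, tests on recovered reads (Kal's and Fisher's exact), scaling to the median contig or by a trimmed mean, read and RPKM minimums, added values and leaving out auxiliary names. Fisher's test with Benjamini-Hochberg adjustment, 10 reads in both libraries and a mean of 10 RPKM were chosen after seeing the data. Members and lists were chosen with earlier results of these data known. Contigs were named by rule: those called, the most abundant of each class, the 5 largest and 5 smallest ratios with at least 20 reads, shared names, and those at 0. Others are marked as named after their values were seen, or are contigs of the same name as a named one or passed the read test. Analysis used Python 3.11.15, numpy 2.4.6, scipy 1.17.1 and pandas 2.3.3.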

Additional observations from a re-analysis of the deposited data

Results flagged for a closer look

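In all, 5 ion channel names changed differently in the populations, by a test of the difference of log2 changes (SD minus SC) over all names on 1 contig in each, of which 41.1% of 4397 passed. The difference was 0.88 for chloride channel clic-like 1 and 1.76 for the voltage gated chloride channel domain-containing protein. It was -0.92 for chloride channel protein 2, -0.76 for chloride channel protein 7 and -1.13 for sodium channel protein para. Scaled to the median contig, the last 3 became -0.49, -0.33 and -0.70 and no longer passed. Each rests on 1 library per condition and population, so the spread between pools is not in the test. The contigs were paired by name alone, so a pair may hold different genes.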

How the results depend on the processing

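No paired analysis was possible because each condition of a population has 1 library and the labels carry no replicate numbers, and no library could be left out. Main counts of members called, 0 in SD and 2 in SC, became 2 and 8 with Benjamini-Hochberg correction, 2 and 9 with Kal's test on recovered reads, 2 and 11 with Fisher's exact test on them, and 6 and 25 with Fisher's test and Benjamini-Hochberg correction. Scaling SC to the median contig or by the trimmed mean called 4 SC members, all lower, and dropped the alpha-3 precursor (log2 0.29 and 0.31). Over all contigs, 526 SD and 1160 SC calls became 1268 and 4314 with Benjamini-Hochberg correction and 1627 and 9321 with Fisher's test so corrected, and the SC calls became 3749 by Kal's test on reads and 3824 by Fisher's. SC calls, 638 higher and 522 lower, became 254 higher and 1417 lower with scaling to the median contig. Members past 2-fold, 14 in SD and 37 in SC, became 6 and 6 with at least 10 reads in both libraries and 3 and 2 at a mean of at least 10 RPKM, and the SC number became 23 with more than 10 reads in at least 1 library, by dropping scarce members. The SD median log2 ratio of -0.02 became -0.16 with at least 10 reads in both. The SC median of 0.40 became 0.00 with scaling to the median contig, 0.012 with the trimmed mean, 0.00 with at least 10 reads in both and -0.059 at a mean of at least 10 RPKM. Names that differed between populations, 5, became 3 with scaling to the median contig. For single named members 336 values kept direction and side of the threshold, 30 newly passed it and 2 no longer did. Another 12, all of uncalled members, changed sign with scaling to the median contig or by the trimmed mean. SCN_Contig30528 (0.06) became -0.34 and -0.32, SCN_Contig34638 (0.22) -0.18 and -0.16, SCN_Contig54935 (0.03) -0.36 and -0.35, SCN_Contig63529 (0.20) -0.19 and -0.18, SD_Contig36175 (-0.02) 0.016 and 0.010, and SD_Contig36788 (-0.02) 0.017 and 0.012. Depth limits the 55 SD and 53 SC members with under 10 control reads.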
